A study of Mus musculus with 5 samples.

Results

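The miR-99/100 and miR-125 families were followed through injury and repair of the mouse tibialis anterior, a muscle of the lower hind limb. They comprised the 6 TaqMan assays miR-100, miR-99b, miR-125a-5p, miR-125a-3p, miR-125b-5p and miR-125b-3p, of 217 miRNA assays in all, chosen by family name. The files also held an assay for miR-99a, the remaining member of the miR-99/100 family. It was added after its values were seen, is described beside the others and stays outside the counts over 6. C57BL/6J males aged 4 to 6 months received cardiotoxin, a venom peptide that destroys myofibres, at 2.5 µM in 100 µl into the anterior compartment of both hind limbs. The groups were uninjected muscle (baseline) and muscle taken 1, 3, 4, 7 and 21 days after the injection, and the labels give 4 mice for each. Each assay had 4 raw Ct values per group, and the baseline values were shared by every comparison. The values carry no mouse names, so p-values measure the spread between 4 values whose independence the files do not show.

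The 3 genomic clusters behind these assays each place a miR-99/100 gene, a let-7 gene and a miR-125 gene in a row on the same strand. The miR-99/100 family is known for repressing Mtor and Igf1r, both in the growth signalling of insulin-like growth factors. The miR-125 family corresponds to lin-4 of Caenorhabditis elegans, a timer of larval development, and miR-125b is known in mouse myoblasts to repress Igf2, a growth factor that drives their differentiation. A hairpin precursor can yield a mature miRNA from its 5′ side (5p) and another from its 3′ side (3p), and the 5p strand is the more abundant one for most members of both families.

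The mature sequences show which assays share a seed, the stretch of bases 2 to 8 (in capitals) that pairs with target mRNAs. They are written 5′ to 3′ from RefSeq on GRCm38.p6. All 7 assay names were matched, and miR-351, a miRNA of the X chromosome, is added because it carries the miR-125 seed.
miR-100: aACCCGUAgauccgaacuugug
miR-99a: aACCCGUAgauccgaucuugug
miR-99b: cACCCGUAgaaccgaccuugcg
miR-125b-5p: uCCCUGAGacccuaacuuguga
miR-125a-5p: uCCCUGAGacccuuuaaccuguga
miR-351: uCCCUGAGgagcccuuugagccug
miR-125b-1-3p: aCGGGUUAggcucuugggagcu
miR-125b-2-3p: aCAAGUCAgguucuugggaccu
miR-125a-3p: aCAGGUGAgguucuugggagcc
The seed ACCCGUA was found in 3 mature miRNAs of the RefSeq table, all of the miR-99/100 family, and CCCUGAG in 5. Each of the 3p seeds was found in 1. Counted from the 5′ end, miR-100 and miR-99a differ at a single base (A16U), whereas miR-100 and miR-99b differ at 4 (A1C, U11A, A16C and U21C). Whether the assays for miR-100 and miR-99a read each other's target was not tested, and their values are uncertain to that extent. The 5p strands of miR-125b (22 bases) and miR-125a (24 bases) share their first 13 bases. Compared position by position without gaps they differ at 7 positions after that, a count raised by their unequal lengths. The files do not say which of the 2 sequences of the 3p strand the miR-125b-3p assay reads.

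On chromosome 9, miR-100 (chr9:41531437-41531458) and miR-125b-5p (chr9:41581940-41581961) lie on the plus strand within the span of Mir100hg, a long noncoding RNA gene, with Mirlet7a-2 between them. The stretch from Mir100 to Mir125b-1 covers 50.565 kb. On chromosome 16, miR-99a (chr16:77598940-77598961) and the other copy of miR-125b-5p (chr16:77646279-77646300) lie on the plus strand, with Mirlet7c-1 between them, over 47.4 kb. No other gene of the RefSeq table spans that pair. On chromosome 17, miR-99b (chr17:17830194-17830215) and miR-125a-5p (chr17:17830817-17830840) lie on the plus strand within the span of Spaca6, a protein-coding gene, with Mirlet7e between them and only 0.683 kb from end to end. Because miR-125b-5p is the same sequence at both loci, its assay reads chromosomes 9 and 16 together. Whether these positions are exonic or intronic is not given in the tables used here.

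Ct falls by 1 cycle for each doubling of the starting amount. Changes are therefore minus differences in Ct, in log2 units. The main scaling set them relative to the median miRNA, meaning the median change over 205 miRNAs that stayed under Ct 35 in every well. That median was taken at each value position of a group, which the files do not tie to an RNA. U6, a small nuclear RNA that the files mark as the endogenous control, was the alternative. Its mean Ct was 12.5 ± 0.79 at day 1, against 14.8 ± 0.26 at baseline (SD, n = 4 each). The U6 scaling therefore moved the changes by −1.91, −1.12, −0.67, −0.093 and −0.12 at days 1, 3, 4, 7 and 21. Y1, another small RNA control, moved them by 2.73, 1.32, 0.30, 1.10 and 1.07. Where a well was left out the move differed, as for miR-99b at day 4 (from 0.56 to −0.24 with U6). The words rose and fell are kept for a miRNA that passed an adjusted p of 0.05 in limma with the same sign under both scalings. The median spread between values within a group was 0.268 with the main scaling and 0.644 with U6 (residual SD, log2).

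Of the 6 assays, miR-100 and miR-125b-5p fell at days 1, 3 and 4, only miR-100 fell at day 7, and only miR-125b-3p fell at day 21. The shares of all tested miRNAs that fell were 38.9%, 41.0%, 41.3%, 35.7% and 19.2% at days 1, 3, 4, 7 and 21. No assay of the 6 rose over baseline at any day in limma, also at an unadjusted p under 0.05 in both scalings, against 9.00%, 19.3%, 25.4%, 31.5% and 22.1% of all tested miRNAs. Relative to the median miRNA alone, 4, 3, 2, 4 and 3 of the 6 passed, against 80.1%, 79.7%, 84.5%, 82.6% and 73.2% of all tested miRNAs. The median change of the 6 was −0.32, −0.19, −0.50, −0.56 and −0.54 at days 1, 3, 4, 7 and 21, beside −0.04, −0.05, 0.06, 0.07 and 0.00 over all tested miRNAs. As counts, these shares lay near or under those of the whole panel.

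**Figure D1:**
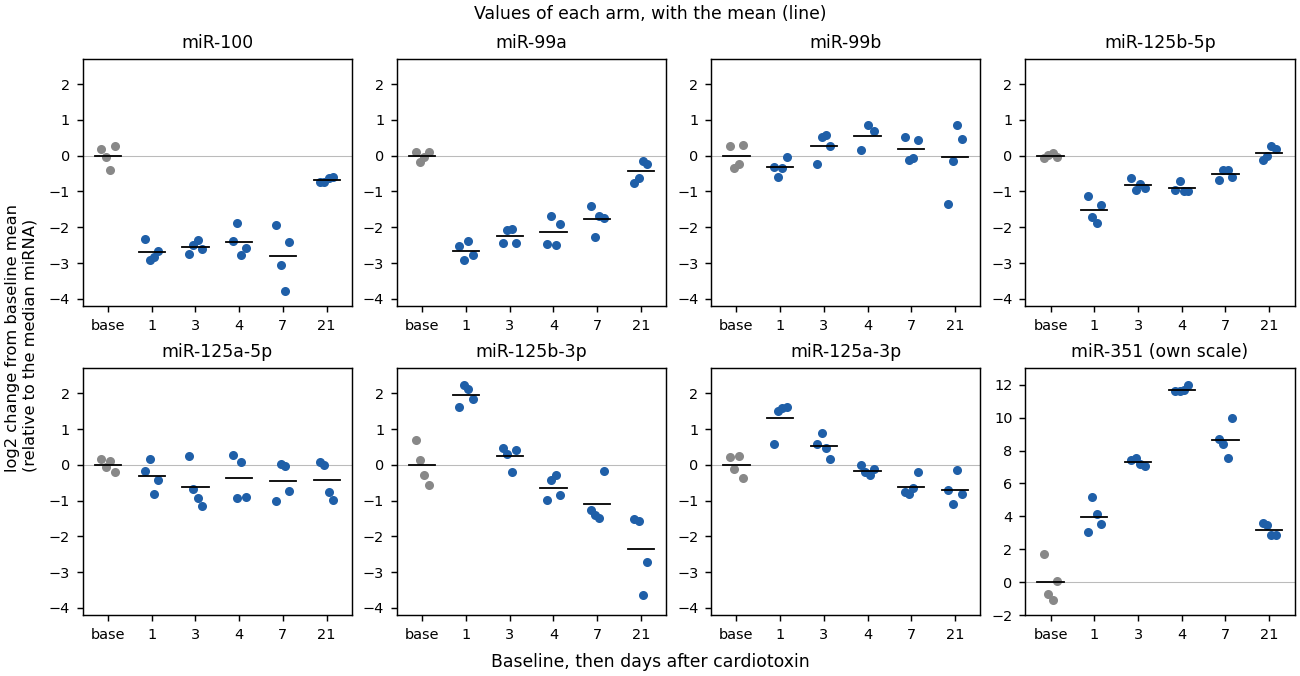
The 4 values of each group (points) and their mean (line) for the 6 assays, miR-99a and miR-351, as log2 change from the baseline mean relative to the median miRNA. Baseline comes before the days after cardiotoxin on the horizontal axis, and miR-351 has its own vertical scale. Values of miR-100 lie between −2.90 and −2.34 at day 1, against −0.41 and 0.27 at baseline, while those of miR-99b overlap baseline at day 1.

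In the miR-99/100 family, miR-100 and miR-99a fell at the same 4 days and rose between days 7 and 21, although relative to Y1 their day 1 changes were near 0, while miR-99b had no call. The Ct values of miR-100 were 17.96, 18.13, 18.20 and 17.38 at baseline. They were 20.01, 20.48, 20.10 and 20.28 at day 1, 19.95, 19.89, 19.25 and 19.94 at day 3, and 19.29, 18.87, 19.91 and 19.44 at day 4. At day 7 they were 18.52, 19.86, 20.62 and 19.08, and at day 21 they were 18.41, 18.55, 18.38 and 18.41. Every value from day 1 to day 21 lay above every baseline value in Ct, that is, lower in amount before scaling, and the day 7 values were the most scattered. Relative to the median miRNA, miR-100 fell at days 1, 3, 4 and 7, with changes of −2.68, −2.55, −2.40 and −2.795 (SE 0.27 each), 6.43-fold, 5.85-fold, 5.29-fold and 6.94-fold, although relative to Y1 the day 1 change was 0.05. The adjusted p-values in limma were 1.23e-08, 1.81e-08, 4.64e-08 and 4.78e-09, and relative to U6 the changes were −4.59, −3.67, −3.08 and −2.89 (SE 0.40). At day 1 it was the 8th lowest of 211 tested miRNAs. Day 7 scaled values ran between −3.79 and −1.94, with no overlap with baseline.

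Between days 7 and 21, miR-100 rose by 2.13 ± 0.27 (SE, limma adjusted p = 1.12e-06), and only 2 of the 216 tested miRNAs had a larger increase over that interval. Across the panel, 19.4% rose between those days. At day 21 its change from baseline was −0.67 ± 0.27 relative to the median miRNA (limma adjusted p = 0.0342), −0.79 ± 0.40 against U6 (adjusted p = 0.113) and 0.40 against Y1. The 4 day 21 values lay between −0.73 and −0.61, outside the baseline range, with an SD of 0.068. Values outside the baseline range were common in these data, at 72.5%, 75.9%, 80.8%, 79.3% and 65.7% of tested miRNAs at days 1, 3, 4, 7 and 21.

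The near-identical miR-99a followed miR-100 closely until day 4. It fell at days 1, 3, 4 and 7, with changes of −2.65, −2.25, −2.14 and −1.78 (SE 0.20, limma adjusted p between 9.94e-11 and 3.88e-08), although relative to Y1 its day 1 change was 0.08. Its Ct values were 20.96, 21.26, 20.44 and 21.14 at day 1, against 18.79, 19.03, 18.59 and 18.32 at baseline, with no overlap. It then rose by 1.34 between days 7 and 21 (SE 0.20, limma adjusted p = 7.49e-06) and stood at −0.44 at day 21 (limma adjusted p = 0.053). The difference in Ct between miR-100 and miR-99a, which needs no normalizer, moved by −0.03, −0.30, −0.27, −1.02 and −0.23 at days 1, 3, 4, 7 and 21, and its values were outside the baseline range at day 7 alone. This pair was added after the values were seen and was not tested.

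miR-99b, which carries the same seed from chromosome 17, had no call under both scalings at any day. Its Ct values were 22.62, 22.80, 22.26 and 22.27 at day 1, against 22.48, 23.08, 22.64 and 21.98 at baseline. At day 4 they were 21.38, 20.77 and 20.80 with the remaining well at 40, the last cycle, meaning that no amplification was recorded there. That well was left out of the fit, so day 4 rests on 3 values. Its changes relative to the median miRNA were −0.33, 0.28, 0.56, 0.20 and −0.05 (SE 0.34, and 0.36 at day 4), and with U6 as the reference they were −2.24, −0.84, −0.24, 0.10 and −0.17, of which those at days 1 and 3 passed. With the well kept at 40 the day 4 change would be −4.14, so the handling of 1 well decides its sign. At day 21 the 4 values scattered between −1.35 and 0.84, the widest of its groups.

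**Figure D2:**
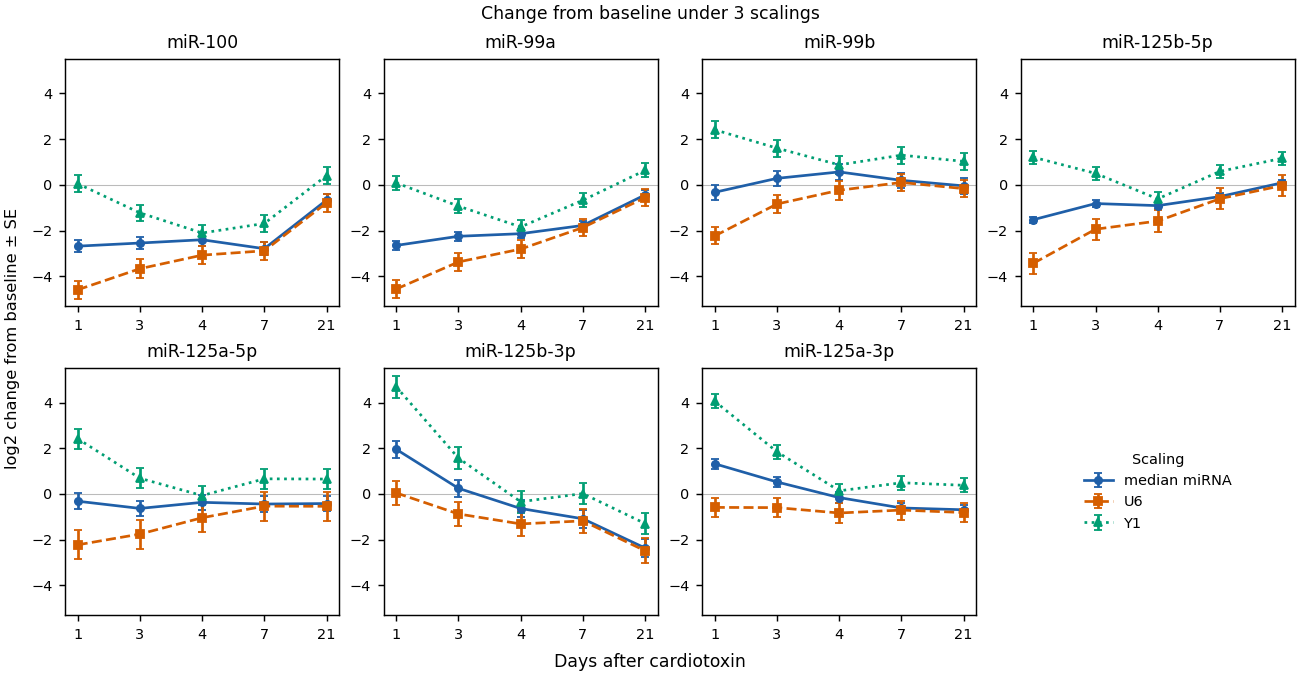
Change from baseline (log2, mean with the standard error of the fit as bars) at days 1, 3, 4, 7 and 21 for the 6 assays and miR-99a, relative to the median miRNA (circles), U6 (squares) and Y1 (triangles). The scalings are shifted against each other by a constant at each day, with a gap of −1.91 for U6 and 2.73 for Y1 at day 1. miR-99b at day 4, where a well was left out, departs from that constant. At day 1 miR-100 stands at −2.68, −4.59 and 0.05.

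In the miR-125 family, miR-125b-5p had calls at days 1, 3 and 4, and miR-125a-5p had no call under both scalings. The Ct values of miR-125b-5p were 19.07, 19.55, 19.44 and 19.27 at day 1, against 18.47, 18.34, 18.00 and 17.95 at baseline, with no overlap. At day 7 they were 17.53, 17.48, 17.50 and 17.54, a spread of 0.0275 (SD), the smallest of its groups. miR-125b-5p fell at days 1, 3 and 4, with changes of −1.53 (2.88-fold), −0.82 and −0.91 relative to the median miRNA (SE 0.14, limma adjusted p = 1.97e-09, 1.49e-05 and 3.38e-06), whereas relative to Y1 the values were 1.21 and 0.50 at days 1 and 3, and the day 4 value was 0.054 after quantile scaling and 0.0325 in raw Ct. Between days 1 and 3 it rose by 0.71 (SE 0.14, limma adjusted p = 0.000116), although relative to Y1 its day 3 value was the lower of the pair. Of the tested miRNAs, 31.0% rose between those days. At day 7 its change of −0.52 passed relative to the median miRNA only (adjusted p = 0.0019 in limma, and 0.248 relative to U6), and at day 21 it was 0.09 ± 0.14.

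miR-125a-5p had Ct values of 20.36, 20.55, 20.06 and 20.25 at baseline, and its group means stayed between 19.6 and 20.6 throughout. Its changes relative to the median miRNA were −0.32, −0.63, −0.37, −0.44 and −0.42 (SE 0.34), with limma adjusted p-values between 0.0931 and 0.388. Relative to U6 the changes of −2.22 at day 1 and −1.75 at day 3 passed (limma adjusted p = 0.00219 and 0.0148), which left the call dependent on the scaling. The values at every day overlapped baseline relative to the median miRNA. In raw Ct those of day 7 (19.19 to 19.97) did not, nor did those of day 1 relative to U6 (−3.54 to −1.39, against −0.24 to 0.33).

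The 3p assays had later Ct values than the 5p assays, although amounts were not compared between assays. Their profiles differed from those of the 5p strands at some days only. The ratios of strands, described below, lay outside the baseline range at days 1 and 3 for miR-125a and days 1 and 21 for miR-125b. miR-125b-3p had Ct values of 28.70, 29.23, 29.34 and 29.49 at baseline, 27.33, 26.62, 26.42 and 27.04 at day 1, and 30.48, 30.68, 32.68 and 31.78 at day 21. Every day 1 value was thus earlier in cycles, and every day 21 value later, than every baseline value. Relative to the median miRNA its changes were 1.95, 0.25, −0.64, −1.08 and −2.36 at days 1, 3, 4, 7 and 21 (SE 0.38). At day 21 it fell under both scalings, 5.15-fold relative to the median miRNA (limma adjusted p = 1.29e-05, and 0.000405 relative to U6), and was the 4th lowest of 213 tested miRNAs. At day 1 the change of 1.95 passed relative to the median miRNA (adjusted p = 8.79e-05 in limma), whereas relative to U6 it was 0.04 ± 0.54.

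miR-125a-3p had Ct values of 27.63, 27.93, 27.27 and 27.75 at baseline, 26.82, 25.79, 25.43 and 25.72 at day 1, and 28.12, 28.64, 27.65 and 28.34 at day 21. The day 1 values did not overlap baseline and the day 21 values did. Relative to the median miRNA its changes were 1.32, 0.53, −0.16, −0.61 and −0.69 (SE 0.23), and those at days 1, 3, 7 and 21 passed (limma adjusted p between 2.09e-05 and 0.0416). Relative to U6 they were −0.59, −0.60, −0.83, −0.70 and −0.81, none of which passed (limma adjusted p between 0.0753 and 0.2), so its sign at days 1 and 3 depended on the scaling.

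Ratios of 2 assays in wells of the same position need no normalizer, and 6 such pairs were compared at 5 days. They assume, as do the scalings to the median miRNA and U6, that values at the same position come from the same RNA. The files do not state this, and the standard errors and calls above depend on it. The exact permutation test, two-sided over 4 against 4 values, cannot give a p under 0.0286 (0.0571 where 3 values of miR-99b remained). After Benjamini-Hochberg adjustment over the 30 tests none passed, with 0.0659 as the smallest adjusted p, though 13 had an unadjusted p of 0.0286. Given that floor, an adjusted p under 0.05 needed most of the 30 tests at the smallest p, whatever the size of the changes. In limma on the values relative to the median miRNA, with the 2 assays stacked and positions not paired, 14 passed. That fit treats the 2 assays as independent, so its p-values do not measure the spread of the ratios. Of the 30 comparisons of ratios, 14 had values wholly outside the baseline range. The share over all possible pairs of assays was not computed, so whether 14 of 30 is many is not known. For single assays relative to the median miRNA, that share ran from 65.7% at day 21 to 80.8% at day 4.

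The ratio of miR-125b-5p to miR-125b-3p gave the widest swing of the 6 pairs. It was 11.2-fold lower at day 1 (−3.48, values between −4.02 and −2.74, against −0.77 and 0.54 at baseline) and 5.47-fold higher at day 21 (2.45, between 1.42 and 3.92). The exact p was 0.0286 at both days (adjusted 0.0659), and the changes between were −1.07, −0.28 and 0.57, which overlapped baseline. In limma on stacked values the adjusted p was 7.19e-11 at day 1 and 5.56e-07 at day 21. For miR-125a the ratio of strands moved by −1.64 at day 1 and −1.16 at day 3, without overlap, and by −0.21, 0.17 and 0.27 at days 4, 7 and 21, with overlap. The panel held both strands of 15 other hairpins, whose median change was 0.37 at day 1 and 0.44 at day 21. At day 1 they ran between −2.78 (miR-335) and 1.62 (miR-331), so none was as low as miR-125b, and at day 21 they ran between −0.73 (miR-199a) and 1.52 (miR-342), so none was as high. The miR-125b-5p assay reads chromosomes 9 and 16 together, whereas the 3p strands of those loci differ in sequence. The miR-125b ratio thus does not belong to a single hairpin. A shift between the loci and a change in strand use cannot be told apart in it.

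Ratios of assays that share a genomic cluster were compared with baseline, and no tested change passed the exact test after adjustment. On chromosome 9, the ratio of miR-100 to miR-125b-5p moved by −1.16, −1.73, −1.49, −2.28 and −0.76 at days 1, 3, 4, 7 and 21, each without overlap with baseline (exact p = 0.0286, adjusted 0.0659). In limma on stacked values the first 4 of these passed and day 21 did not (adjusted p = 0.0904). The miR-125b-5p assay also reads chromosome 16, where the ratio of miR-99a to miR-125b-5p, added after the values were seen, moved by −1.12, −1.43, −1.23, −1.26 and −0.53. On chromosome 17, the ratio of miR-99b to miR-125a-5p moved by −0.01, 0.92, 1.08, 0.64 and 0.37 and overlapped baseline at every day (exact adjusted p between 0.268 and 1). The standard errors of those changes were 0.35 to 0.75, and even 0.92 at day 3 and 1.08 at day 4 were not resolved (exact p = 0.143 and 0.171). The overlap therefore does not show that this ratio was fixed.

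Pairs that share a seed but not a cluster are given next. The ratio of miR-100 to miR-99b moved by −2.36, −2.83, −2.84, −2.99 and −0.62, without overlap at days 1, 3, 4 and 7 and with overlap at day 21. Its fold was between 5.12 and 7.94 over those 4 days (exact adjusted p = 0.0659, and 0.114 at day 4 with 3 values). The ratio of miR-125a-5p to miR-125b-5p moved by 1.21 at day 1, without overlap (exact p = 0.0286, adjusted 0.0659, and 0.0082 in limma on stacked values), and by 0.19, 0.54, 0.08 and −0.51 later, with overlap.

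**Figure D3:**
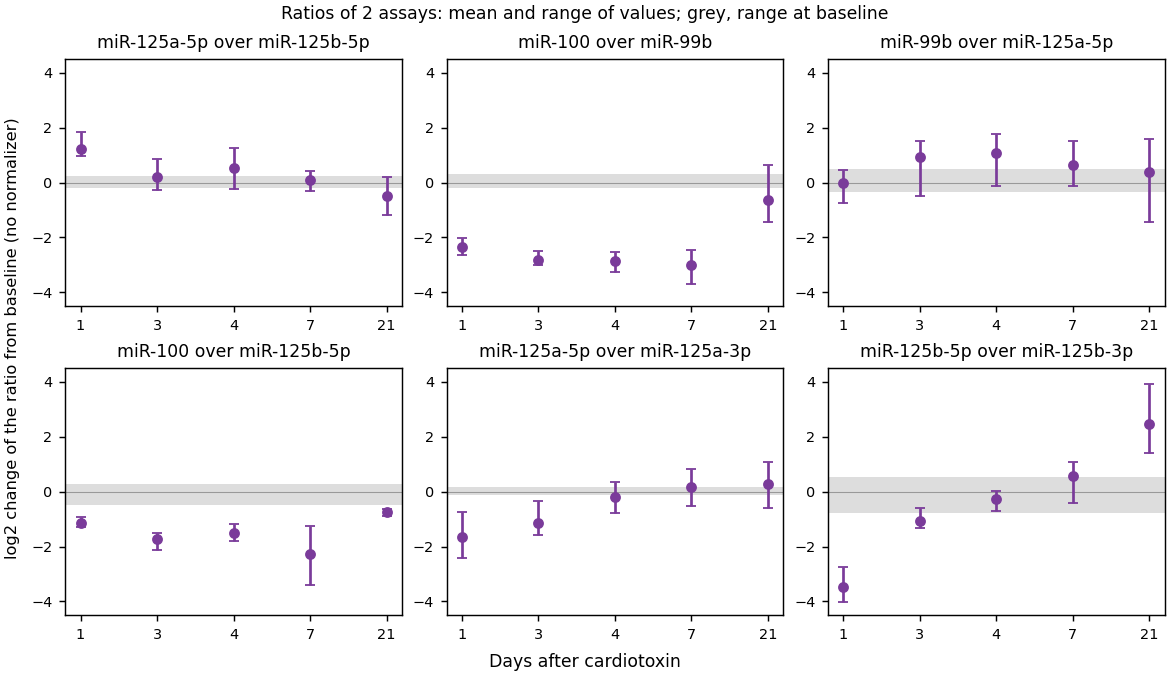
Change from baseline (log2) of the ratio of 2 assays for the 6 pairs at days 1, 3, 4, 7 and 21. Points are means, bars run from the lowest to the highest value and the grey band is the range at baseline. miR-100 over miR-125b-5p lies under the band at every day, and miR-125b-5p over miR-125b-3p lies under it at day 1 (−3.48) and over it at day 21 (2.45).

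The family also has a member by seed alone. miR-351 rose at every day, by 3.97, 7.32, 11.71, 8.66 and 3.18 relative to the median miRNA (SE 0.52). Its Ct values were 21.42, 21.51, 21.56 and 21.01 at day 4, against 32.53, 34.90, 34.96 and 33.71 at baseline, near the detection limit of 35. The ratio of miR-351 to miR-125b-5p was higher by 12.62 (log2) at day 4 than at baseline, a pair added after the values were seen.

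Other miRNAs with profiles like these are named by the smallest root mean square difference in mean log2 change over the 5 days, among 200 candidates and as a description. The nearest to miR-100 were miR-328 (0.480), miR-190 (0.496) and miR-99a (0.499), and the nearest to miR-99a was miR-190 (0.172). miR-125b-5p lay nearest to miR-27b (0.233), miR-152 (0.391) and let-7a (0.427). miR-125a-3p lay nearest to miR-93 (0.120), miR-92a (0.256) and miR-15a (0.309), and miR-125a-5p to miR-872 (0.324), miR-350 (0.356) and miR-24 (0.433). The nearest to miR-99b were miR-324-5p (0.196), miR-28 (0.397) and let-7i (0.411). miR-125b-3p had no close neighbour, with miR-339-3p (0.543), miR-340-5p (0.590) and miR-210 (0.724) the nearest.

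**Figure D4:**
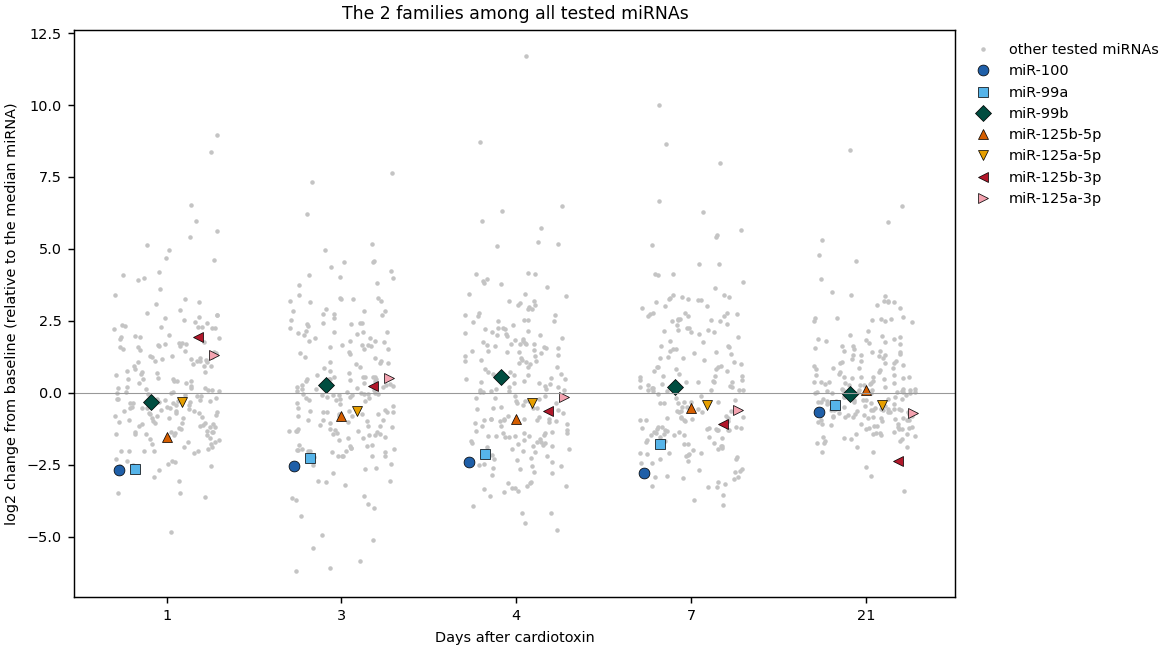
Change from baseline (log2, relative to the median miRNA) of each tested miRNA at days 1, 3, 4, 7 and 21, with the 6 assays and miR-99a as large symbols among the others in grey. miR-100 is the 8th lowest of 211 at day 1 and miR-125b-3p the 4th lowest of 213 at day 21, while miR-99b and miR-125a-5p stay near 0.

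The let-7 miRNAs encoded between these genes restrain growth and proliferation genes. let-7e, between miR-99b and miR-125a, fell at days 1, 3, 4 and 7 and was at −0.30 at day 21. Its changes at days 1, 3, 4 and 7 were −0.69, −0.925, −0.92 and −1.305 (SE 0.25, limma adjusted p between 5.39e-05 and 0.0154). Its neighbours miR-99b and miR-125a-5p had no call under both scalings, though both passed relative to U6 at days 1 and 3. The difference between let-7e and its neighbours was not tested. let-7a fell by 1.25 at day 1 (SE 0.21, limma adjusted p = 1.16e-05) and had no call later. let-7c rose by 1.35 at day 21 (SE 0.14, limma adjusted p = 2.79e-08) and had no call earlier. Both let-7a and let-7c are also encoded at other loci, so their assays do not read these clusters alone. With the shift of 2.73 that Y1 gives at day 1, the changes of let-7a and let-7e turn positive there, as does that of let-7e at day 3, and in raw Ct that of let-7e at day 4.

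Of 10 miRNAs known to act on IGF, PI3K-AKT or mTOR signalling, a list chosen with earlier results of these data known, 6 fell at day 1, 7 at each of days 3, 4 and 7, and 6 at day 21. 1 rose at days 1, 3 and 4, and none at days 7 and 21 in limma, also at an unadjusted p under 0.05. Their median changes were −1.20, −2.28, −2.61, −2.20 and −1.19, beside −0.04, −0.05, 0.06, 0.07 and 0.00 over all tested miRNAs. Of all tested miRNAs, 38.9%, 41.0%, 41.3%, 35.7% and 19.2% fell and 9.00%, 19.3%, 25.4%, 31.5% and 22.1% rose at those days. The list shares miR-1, miR-133a, miR-486, miR-145, miR-126-3p, miR-199a-3p and miR-223 with the cell type lists of the next paragraph, so their changes appear in both. The muscle miRNAs miR-1 and miR-133a, which act on Igf1 and Igf1r, fell at each day, with changes of −4.85 and −3.06 at day 1 and −1.44 and −1.27 at day 21. miR-486, a myofibre miRNA, fell by 3.64 at day 1 and was at 0.20 at day 21. miR-29c, which acts on Igf1 and a PI3K subunit, fell at all 5 days, with changes of −1.96, −2.515, −3.24, −3.72 and −1.76. miR-29a fell at days 3, 4, 7 and 21, with changes of −0.94, −1.51, −2.16 and −1.10, and miR-29b at days 7 and 21, with −0.795 and −1.41. miR-145, an Irs1 and Igf1r regulator of smooth muscle, fell at each day, with changes of −1.32 at day 1 and −1.41 at day 21. miR-126-3p, an endothelial regulator of a PI3K subunit, fell at days 3, 4 and 7, with changes of −2.05, −2.65 and −2.24. miR-199a-3p, which acts on Mtor, fell by 1.08 at day 1 only. miR-223, a myeloid miRNA that acts on Igf1r, rose by 6.53, 3.74 and 2.15 at days 1, 3 and 4. Relative to Y1 the changes of miR-29c, miR-145 and miR-199a-3p at day 1, miR-29a at day 3 and miR-29b at day 7 turn positive.

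miRNAs taken as markers of cell types also changed over the same days, and no cells were counted. In whole muscle, fewer cells of a type and less of a miRNA per cell cannot be told apart. The shares of all tested miRNAs that fell and rose, given in the previous paragraph, stand beside the counts here. Of 6 myofibre miRNAs, 5 were measured, and 5 of 5, 4 of 4, 5 of 5, 4 of 5 and 4 of 5 tested fell at days 1, 3, 4, 7 and 21. miR-499 was not tested at day 3, since its wells lay above Ct 35 there, but it enters the levels. Their mean level per value, relative to the median miRNA, lay between −0.26 and 0.17 at baseline. The ranges for the 5 days in order were −4.63 to −2.67, −6.98 to −5.58, −3.90 to −3.03, −2.66 to −1.87 and −1.46 to −0.93. Of 5 blood cell miRNAs, 3 rose at days 1, 3 and 4 and 2 at day 7. In the same list miR-150, a lymphocyte miRNA, fell at days 3, 4 and 7 and miR-451, a red cell miRNA, at days 4 and 7. The list had mean levels of 3.61 to 3.90 at day 1 and 0.04 to 0.41 at day 7. Of 2 endothelial miRNAs, both fell at days 3, 4 and 7, with mean levels of −2.96 to −2.39 at day 4. Both smooth muscle miRNAs fell at days 3, 4 and 7 and 1 of them at days 1 and 21, with −3.15 to −2.55 at day 7. Of 4 fibroblast miRNAs, 2 fell at day 1, 1 rose at days 3 and 4 and 3 rose at day 7, with 1.27 to 1.81 at day 7. Of 4 tested epithelial miRNAs, 4 rose at days 1 and 3 and 3 at days 4 and 7, and 1 fell at day 21. Mean levels over the 5 measured, which include the untested miR-429, were 5.72 to 6.45 at day 1. Some of these falls depended on the scaling. With the shift of 2.73 that Y1 gives at day 1, the changes of miR-499, miR-145, miR-199a-3p and miR-214 turn positive there. The fall of miR-150 at day 3 is near 0 relative to Y1, as is that of miR-451 at day 4 in raw Ct. The part of the changes in cell type miRNAs in those of the miR-99/100 and miR-125 families was not tested.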

How the data were processed

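The authors deposited unnormalized Ct values for 222 assays (217 miRNAs and 5 control RNAs). Per the labels' protocols, total RNA of an integrity number above 9 was run in TaqMan assays on a 7900HT instrument. How Ct thresholds and RNA input were set is not stated. Ct data have no read depth, and 4 values per group limit the precision. The baseline was identical in the 5 files and used once. Days 2 and 5 were not analysed here.

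A miRNA was tested where Ct was under 35 in at least 3 of 4 wells of both groups, and wells at 40 were left out. The 6 groups entered a single fit per miRNA (limma 3.58.1, lmFit and eBayes, R 4.3.3), two-sided, with Benjamini-Hochberg adjustment over all miRNAs tested in a comparison. The fit was tested on simulated data. Pair ratios used SciPy 1.17.1. The 6 assays and all lists were chosen with earlier results of these data known. miRNAs named were the 6 assays, their let-7 neighbours, the 3 nearest profiles of each, the IGF list and the control RNAs. miR-99a and miR-351 were added after their values were seen. Alternatives covered the scaling (U6, snoRNA135, snoRNA202, U87, Y1, median Ct, quantile, none), the Ct limit, wells at 40, limma-trend, 2 groups per fit, unpaired positions and each value left out.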

Additional observations from a re-analysis of the deposited data

Results flagged for a closer look

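Of 47 groups of 4 values (the 6 assays, miR-99a and miR-351), 2 held a value far from its group by Dixon's gap test. Chance alone flags about 1 of 20 groups, so about 2 of 47 would be flagged by chance. A day 1 value of miR-125a-3p stood at 0.58, against 1.51 to 1.61 for the others of that day (relative to the median miRNA, log2). A day 4 value of miR-125b-5p stood at −0.71, against −0.99 to −0.96 for the others. Whether either reflects a mouse or a well was not tested.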

How the results depend on the processing

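The counts given here are of the 6 assays past the test relative to the median miRNA alone, 4, 3, 2, 4 and 3 at days 1, 3, 4, 7 and 21. Leaving out each value in turn gave 4 to 4, 2 to 3, 2 to 2, 2 to 4 (2 without baseline value 1) and 1 to 3 (1 without day 21 value 2). Quantile scaling gave 2 at day 1 and 1 at day 3. snoRNA135 gave 6 at days 3, 4 and 21. U6 gave 1 at days 7 and 21, snoRNA202 gave 2 and U87 gave 1 at day 7, Y1 gave 1 at day 4 and 2 at day 7, and raw Ct gave 1 at day 21. Counting miR-99a, limma-trend, other Ct limits and 2 groups per fit moved no count by over 1.5 times. The pair tests passed 0 of 30 by the exact test and 14 by limma on stacked values.

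Changes turned sign as follows (log2), and the cause was not tested beyond the shift of each scaling. With U6, miR-125a-3p was at −0.59 and −0.60 at days 1 and 3, miR-99b at −0.84 and −0.24 at days 3 and 4, miR-125b-3p at −0.88 at day 3 and miR-125b-5p at −0.0325 at day 21. Between successive days with U6, miR-125a-5p was at 0.47 (day 3 against 1) and −0.0075 (day 21 against 7), and miR-125b-5p at 0.36 (day 4 against 3). For day 7 against day 4, miR-100, miR-99b, miR-125a-5p, miR-125a-3p and miR-125b-3p were at 0.19, 0.34, 0.51, 0.13 and 0.13. With Y1, miR-100, miR-99a, miR-99b, miR-125a-5p and miR-125b-5p were at 0.05, 0.0825, 2.41, 2.42 and 1.21 at day 1. At day 3 with Y1, miR-125a-5p was at 0.69 and miR-125b-5p at 0.50, and at day 4 miR-125a-3p at 0.14. At day 7 with Y1, miR-125a-5p, miR-125a-3p, miR-125b-5p and miR-125b-3p were at 0.66, 0.49, 0.59 and 0.0175. At day 21 with Y1, miR-100, miR-99a, miR-99b, miR-125a-5p and miR-125a-3p were at 0.40, 0.63, 1.02, 0.65 and 0.38. With snoRNA135, miR-125a-3p was at −0.0325 and −1.25 at days 1 and 3, miR-99b at −1.49, −1.004 and −0.98 at days 3, 4 and 7, miR-125b-3p at −1.53 at day 3 and miR-125b-5p at −1.05 at day 21. With snoRNA202, miR-125a-3p was at 0.18 and 0.04 at days 4 and 7, and miR-125a-5p and miR-125b-5p at 0.21 and 0.14 at day 7. With U87, miR-99b and miR-125b-3p were at −0.0675 and −0.10 at day 3, and miR-125b-5p at −0.15 at day 21. With the median Ct, miR-99b was at −0.18 at day 7 and miR-125b-5p at −0.32 at day 21. With quantile scaling, miR-125a-3p and miR-125b-3p were at −0.28 and −0.46 at day 3, miR-125b-5p at 0.054 and 0.24 at days 4 and 7, and miR-99b at −0.021 at day 7. With raw Ct, miR-99b was at 0.0575 and 0.10 at days 1 and 21, and miR-125a-5p at 0.0675, 0.075, 0.58 and 0.75 at days 1, 3, 4 and 7. Also with raw Ct, miR-125a-3p was at 0.79 and 0.58, miR-125b-5p at 0.0325 and 0.68, and miR-125b-3p at 0.31 and 0.11, each at days 4 and 7.

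miR-99b was at −4.14 at day 4 with its well kept at 40, and its day 21 change of −0.05 ran between −0.34 and 0.39 with each value left out in turn, at 0.045 and 0.082 without baseline value 1 or 4 and 0.39 without day 21 value 1. No paired analysis was possible because the labels give the groups no replicate numbers.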
